A study of Mus musculus with 3 samples.

Results

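The COMMD genes of the mouse, Commd1 to Commd10, were taken by symbol from the deposited feature lists, which held each of the 10 once among 53802 gene identifiers. They were followed in liver monocytes profiled by single-cell RNA sequencing 24 h after acetaminophen, a drug that injures the liver at overdose. The mice were 8-week-old C57BL/6 males, fasted for 12 h, given 300 mg/kg acetaminophen into the peritoneum and given chow back after 2 h. Control libraries 1 and 3 came from Commd10fl/fl mice, in which loxP sites flank part of Commd10 but the gene is intact, and knockout library 4 came from LysMDCommd10 mice, in which LysM-Cre deletes the floxed part. Both genotypes therefore carried the floxed allele, and all mice had received acetaminophen. LysM-Cre is expressed from the Lyz2 locus and acts in monocytes, macrophages and neutrophils, so deletion starts only once a cell has switched that locus on and can be incomplete. How many mice were behind each library is not in the labels, so a p-value here reflects variation between libraries that may be technical.

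COMMD proteins share a C-terminal COMM domain through which they pair with each other, and together they form a ring with 1 copy of each member. The ring joins CCDC22, CCDC93 and DENND10 in the CCC complex, which works with the retriever complex (VPS35L, VPS26C and VPS29), the cargo adaptor SNX17 and the actin-nucleating WASH complex to return membrane receptors from endosomes to the cell surface. COMMD1 also holds back NF-kB by promoting ubiquitination of its RelA subunit through a Cul2 ligase, and it takes part in copper export through the ATP7 pumps. Cargo returned by this route includes integrins and the scavenger receptor LRP1.

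In control 1, control 3 and knockout 4 there were 4814, 8109 and 5152 barcodes. Of these, 4073, 7418 and 4435 passed the filters and were neither lymphocytes nor neutrophils by their markers, and they are called monocyte-macrophage cells below. Their median depth was 8788, 8170 and 6874 unique molecular identifiers (UMIs, each 1 captured RNA molecule). All 5 of the monocyte-macrophage markers looked for had UMIs in each library, led by Lyz2 at 15360, 11559 and 6471 CPM (UMIs per 1000000 UMIs of the library's monocyte-macrophage cells). The hepatocyte gene Alb, which monocytes do not make, was counted in them at 10.7, 33.2 and 13.7 CPM, and where these UMIs came from was not tested. Libraries shared between 8 and 26 cell barcodes in any pair.

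Commd4, a ring subunit, had the most UMIs of the family in each library, with 125, 113 and 115 CPM in control 1, control 3 and knockout 4. Commd1 followed with 105, 86.1 and 99.4 CPM. Commd3, whose protein pairs with COMMD8 in an adaptor of G protein-coupled receptors, had 92.5, 79.1 and 81.2 CPM, and Commd8 had 76.7, 72.8 and 77.5. Commd7 had 84.1, 82.2 and 75.4 CPM. Commd6, whose protein has little beyond the COMM domain, had 73.5, 70.1 and 72.1. Commd2 was lower with 56.2, 51.2 and 57.5, and Commd9, a member needed for surface Notch receptors, lower again with 27.6, 25.3 and 25.5. Commd10, the targeted gene, had 17.6, 10.3 and 8.43 CPM. Commd5 was barely captured, with 45, 42 and 41 UMIs in all, or 1.15, 0.582 and 1.38 CPM. The order of the first 2 and the last 4 genes (Commd2, Commd9, Commd10, Commd5) was the same in the 3 libraries. Commd3, Commd7, Commd8 and Commd6 lay close to each other and changed places: Commd7 passed Commd3 in control 3, and Commd8 passed Commd7 in knockout 4. Each UMI marks the 3' end of a transcript, so these levels were not divided by gene length, but how well an end is captured differs between genes and limits the comparison between members.

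**Figure D1:**
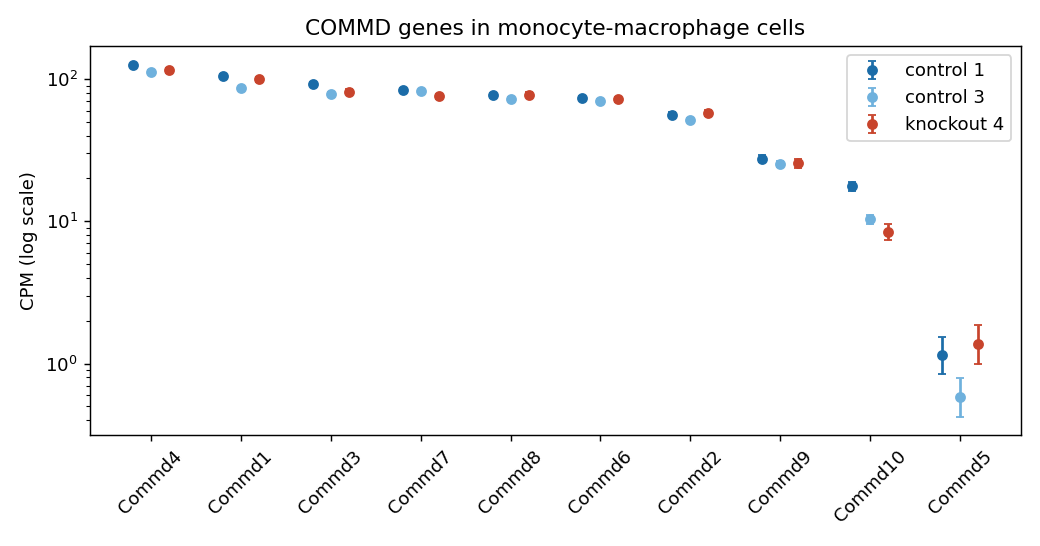
CPM (log scale) of each COMMD gene in the monocyte-macrophage cells of the 3 libraries, with exact Poisson 95% intervals that cover counting error only. Commd4 is highest in each library, Commd5 lies near 1 CPM, and Commd10 lies at 17.6 in control 1 and at 10.3 and 8.43 in control 3 and knockout 4.

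Added together, the 10 genes gave 659, 591 and 613 CPM in control 1, control 3 and knockout 4, so the knockout library lay between the controls. Commd4 made up 19.0%, 19.1% and 18.7% of the family's UMIs (exact Clopper-Pearson 95% intervals 18.5 to 19.4%, 18.7 to 19.5% and 18.2 to 19.3%). Commd1 made up 15.9%, 14.6% and 16.2%. Commd9 held 4.19%, 4.29% and 4.16%. The share of Commd10 was 2.67% in control 1 (2.48 to 2.87%), 1.75% in control 3 (1.62 to 1.88%) and 1.37% in knockout 4 (1.21 to 1.55%). The 3 intervals for Commd10 did not overlap, and those for Commd4 and Commd9 did. Separate intervals were not particular to Commd10. For Commd1, control 3 (14.3 to 14.9%) lay below control 1 (15.4 to 16.3%) and knockout 4 (15.7 to 16.7%). For Commd7, control 3 (13.6 to 14.2%) lay above control 1 (12.4 to 13.2%) and knockout 4 (11.8 to 12.8%). In cells thinned to 4000 UMIs the Commd10 shares were 2.67%, 1.58% and 1.51%, so control 3 and knockout 4 lay closer together. These intervals cover counting error only and do not compare genotypes.

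Part of the Commd5 and Commd1 gene models is shared with other genes. Of the 1396 exonic bases of Commd5 in GENCODE M21, 932 (66.8%) lie in exons of AC157554.2 on the same strand, and AC157554.2 itself had 0 UMIs in each library. Commd1 shares 294 of 5936 exonic bases with Gm28048 on the same strand and 412 with Zrsr1 on the other strand. Counts of 2, 0 and 2 UMIs were assigned to Gm28048 and 122, 205 and 78 to Zrsr1, against 4083, 6220 and 2947 to Commd1. The labels do not describe how reads from shared exons were assigned, so the Commd5 level is uncertain.

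Because deeper cells show more genes, detection was compared after thinning each cell to 4000 UMIs, which left 3470, 6590 and 3543 cells and dropped 603, 828 and 892 shallower ones. At that depth Commd4 had a UMI in 38.7%, 36.5% and 35.5% of cells of control 1, control 3 and knockout 4. Commd1 had one in 35.4%, 28.7% and 32.5%. Commd9 was found in 9.74%, 9.32% and 9.71%, and Commd5 in 0.432%, 0.152% and 0.310%. Commd10 was found in 6.83% of control 1 cells (exact Clopper-Pearson 95% interval 6.01 to 7.72%), 3.61% of control 3 cells (3.17 to 4.09%) and 3.67% of knockout 4 cells (3.07 to 4.34%). The knockout share for Commd10 thus lay within the counting error of control 3 at 4000 UMIs. At 2000 UMIs, which kept more cells, the knockout share was 1.62% (1.24 to 2.07%). That was below the control 3 interval of 1.72 to 2.40%, although the 2 intervals overlapped. Without thinning, the Commd10 shares were 14.2%, 9.09% and 5.30%, at the differing median depths given above. A cell thinned to 4000 UMIs held 2.22, 2.02 and 2.10 COMMD genes on average, with a median of 2 and a highest value of 7 in each library. None of the family was seen in 7.84%, 10.3% and 9.17% of thinned cells. COMMD genes are active in most tissues, so the sort held no cell type that should lack them and could serve as background for these shares.

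**Figure D2:**
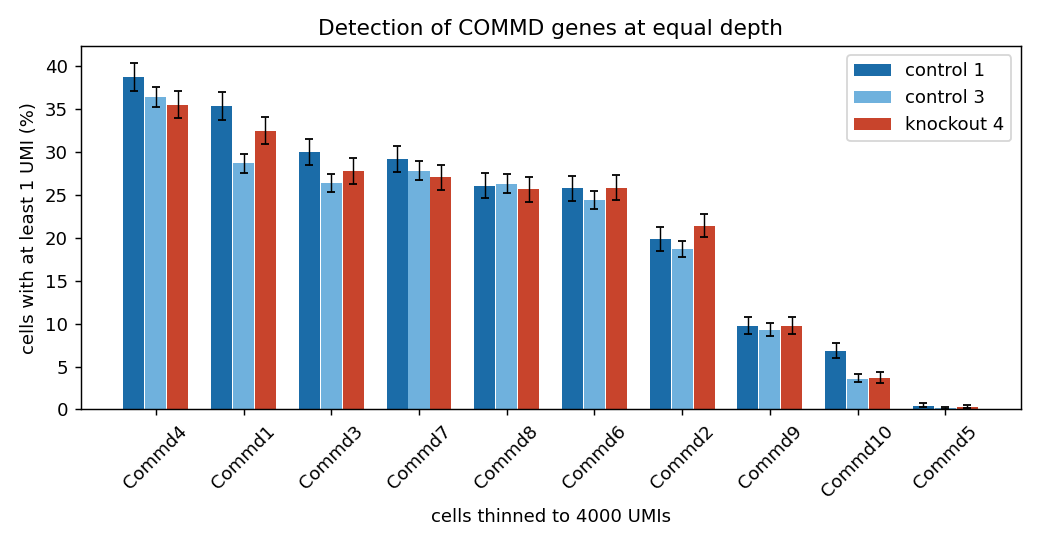
Percentage of cells with at least 1 UMI of each COMMD gene after every cell was thinned to 4000 UMIs; bars are libraries and lines are exact 95% binomial intervals. Commd10 was detected in 6.83% of control 1 cells and in 3.61% and 3.67% of control 3 and knockout 4 cells.

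The knockout library was compared with the 2 controls to see whether loss of Commd10 went with a change of its own RNA or of the other members. Commd10 had 17.2, 10.3 and 8.63 CPM in control 1, control 3 and knockout 4 after TMM scaling, a correction for library composition. The knockout value was below both controls, and the controls lay farther from each other than control 3 lay from the knockout. The log2 fold change of knockout over control was -0.67 with a standard error (SE) of 0.32 (edgeR quasi-likelihood test, adjusted p = 0.640 over 14814 genes), so Commd10 did not pass the threshold of 0.05. Against control 1 alone the log2 difference was -0.99, and against control 3 alone it was -0.26, each 1 library against 1 with no test. After thinning to 4000 UMIs per cell the log2 fold change was -0.46. The 2 controls differed in Commd10 by 0.73 on the log2 scale, a gap exceeded by 3.92% of 3420 genes of like level. The labels do not name the deleted exon, and a shortened transcript that keeps its 3' end would still be counted, so Commd10 UMIs need not report the deletion and are no check of the labels.

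None of the 10 members was called between knockout and control by edgeR or DESeq2, while edgeR called 28 of 14814 genes (0.189%). In that edgeR fit 0 members had an unadjusted p under 0.05. With no low-count filter Commd10 alone was under that unadjusted level (log2 fold change -0.68, SE 0.23), and it was not called. In the fit with the filter, the median log2 fold change of the 10 was 0.03, beside -0.01 over all genes tested. Commd2 had 0.15 (SE 0.15), Commd1 0.11 (SE 0.17), Commd8 0.10 (SE 0.15) and Commd6 0.06 (SE 0.15). Commd4 had 0.00089 (SE 0.15), Commd9 -0.0045 (SE 0.15), Commd3 -0.03 (SE 0.16) and Commd7 -0.09 (SE 0.15). All 8 of these sizes were at or below their SE. Commd5 had 0.77 (SE 0.50), resting on 41 to 45 UMIs a library. With 1 knockout library the spread came from the 2 controls and from the other genes, and the knockout was assumed to vary as they did.

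The partners of the ring were compared in the same way. Of 32 genes listed for the CCC, retriever, retromer and WASH complexes, copper handling, NF-kB partners and recycled receptors, 30 were tested and 0 were called by edgeR or DESeq2, with 2 at an unadjusted edgeR p under 0.05, beside 8.39% of all genes. Slc31a1, the copper importer, had the smallest edgeR p, with 56.8, 63.1 and 85.2 CPM (log2 fold change 0.51, SE 0.15, adjusted p = 0.452). Vps26a, a retromer subunit, had 95.1, 99.8 and 125 (0.36, SE 0.15, adjusted p = 0.583), and Atp7a, a copper exporter, had 31.2, 38.6 and 45.2 (0.37, SE 0.18, adjusted p = 0.637). In each of the 3 the knockout was above both controls, but they were picked by p from these same values. Other listed genes, among them Eloc, Xiap and Nfkb1, were also above both controls, and Itgb1, Washc3 and Ccs were below both. The list's median was 0.10, beside -0.01 over all genes.

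Cells were next divided by marker genes that include no COMMD gene. Cells with Ace, Spn and Treml4, genes of patrolling monocytes, numbered 406, 475 and 373. Cells with the complement genes C1qa, C1qb and C1qc, which mark macrophages, numbered 757, 1140 and 683. S100a8 and S100a9, alarmins of early and neutrophil-like monocytes, marked 207, 157 and 462 cells, and Arg1, an arginase of wound-associated macrophages, marked 215, 137 and 855. Gpnmb with Lpl, genes of lipid-laden macrophages, marked 381, 273 and 104, MHC class II genes marked 271, 861 and 277, and Vcan, a gene of inflammatory monocytes, marked 581, 2649 and 772. The remaining 1255, 1726 and 909 cells passed none of the gates. In each library UMIs were summed over gated and over all other cells, and the pairs of sums were compared with the library as a block.

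The Ace/Spn/Treml4 cells had the lowest family sum of the 8 groups in every library (578, 535 and 517 CPM, the controls first). The highest sums were 688 in C1q cells of control 1, 661 in Gpnmb/Lpl cells of control 3 and 657 in S100a8/S100a9 cells of knockout 4. At 4000 UMIs per cell, Ace/Spn/Treml4 cells held 1.98, 1.83 and 1.80 detected members on average, again the fewest in each library.

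In Ace/Spn/Treml4 cells, 5 of the 10 members were called lower than in the other cells and 0 higher, against 10.5% and 10.6% of 12869 genes. Commd9 had 24.1, 18.4 and 17.0 CPM (TMM-scaled) in gated cells of control 1, control 3 and knockout 4, beside 27.6, 25.8 and 27.0 in the other cells. Its log2 fold change was -0.41 (SE 0.11, edgeR adjusted p = 0.0151). Commd2 had 40.7, 45.4 and 42.7 CPM beside 57.0, 51.5 and 60.5 (-0.37, SE 0.09, adjusted p = 0.00588). Commd1 had 83.2, 77.7 and 72.2 beside 105, 86.6 and 105 (-0.33, SE 0.08, adjusted p = 0.00654). Commd4 had 112, 93.5 and 103 beside 124, 114 and 119 (-0.22, SE 0.07, adjusted p = 0.0335), and Commd3 had 72.9, 72.2 and 75.1 beside 93.2, 79.4 and 84.1 (-0.22, SE 0.08, adjusted p = 0.0477). For each of the 5, the values in gated cells of all 3 libraries lay below those in the other cells without overlap. Here and in the gates below, such separation describes the values behind a call and is no separate support. How many of all genes separated in this way was not counted. Commd7 (-0.14), Commd6 (-0.12) and Commd8 (-0.08) were not called. Commd5 had a fitted value of -1.89 (adjusted p = 0.0557) from 1 UMI in the gated cells of each library. Commd10 was at 0.07 (SE 0.14, adjusted p = 0.779), the lone positive value among the 10 in these cells.

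With 1 library left out, the number of calls in Ace/Spn/Treml4 cells was 2 without control 1, 2 without control 3 and 4 without knockout 4. Of all genes, 885 of 12554, 1143 of 12523 and 1070 of 13039 were called lower in these fits. The 5 members stayed between -0.55 (Commd9) and -0.14 (Commd3), both without control 1. Each fit rested on fewer sums, so lost power and the part of a single library cannot be told apart. The following calls are from these fits. Commd1 passed in all 3 of these fits. Commd9 did not pass without control 3 (edgeR adjusted p = 0.0818) or knockout 4 (0.0674), and Commd2 did not without control 1 (0.0518). Commd3 and Commd4 did not pass without control 1 (0.446 and 0.0941) or control 3 (0.0608 and 0.214). DESeq2 called Commd1 and Commd2, and after thinning edgeR called Commd2 and Commd9. Of all genes, DESeq2 called 738 of 11727 lower, and the thinned edgeR fit called 913 of 11367 lower. Gate levels 2 times as high left 126, 94 and 147 of the same cells. All 5 were then called, at log2 values between -0.63 and -0.52, and Commd8 joined them at -0.43. In that fit 1379 of 12814 genes were called lower. The median absolute log2 value over all genes was 0.36, beside 0.21 at the original gate levels. These cells are part of the original gate, so the calls are no separate support. The median depth of gated cells was 8230, 7664 and 6288 UMIs, below the 8788, 8170 and 6874 of all monocyte-macrophage cells. The part of depth in these differences was not tested beyond the thinned fit.

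The upstream sequences of 4 of these 5 members are shown because the members were called lower in the same cell group. They were picked by those calls, so their shared direction is no result about the sequences. The sequences differ in composition and in the motifs they hold. They come from RefSeq promoters on GRCm38.p6, end at the base before the annotated gene start, and run 5′ to 3′ on the gene's strand. Capitals mark matches to the GC box (GGGCGG) and the CCAAT box (CCAAT) on either strand. Commd1 is shown from chr11:22982383-22982534 (minus strand), Commd3 from chr2:18672185-18672383 (plus strand), Commd4 from chr9:57158332-57158549 (minus strand) and Commd9 from chr2:101886012-101886246 (plus strand).
Commd1: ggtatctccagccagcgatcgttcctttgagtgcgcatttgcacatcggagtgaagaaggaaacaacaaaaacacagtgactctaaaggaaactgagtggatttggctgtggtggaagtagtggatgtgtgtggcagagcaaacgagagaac
Commd3: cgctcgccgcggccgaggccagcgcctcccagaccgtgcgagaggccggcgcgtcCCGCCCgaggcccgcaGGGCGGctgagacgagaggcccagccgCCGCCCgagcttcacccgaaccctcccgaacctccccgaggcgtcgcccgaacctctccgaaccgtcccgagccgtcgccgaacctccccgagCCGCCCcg
Commd4: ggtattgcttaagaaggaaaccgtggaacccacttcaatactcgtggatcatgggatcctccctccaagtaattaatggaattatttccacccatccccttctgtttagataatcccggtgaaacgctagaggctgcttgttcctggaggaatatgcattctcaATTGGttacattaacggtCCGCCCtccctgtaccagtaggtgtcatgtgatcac
Commd9: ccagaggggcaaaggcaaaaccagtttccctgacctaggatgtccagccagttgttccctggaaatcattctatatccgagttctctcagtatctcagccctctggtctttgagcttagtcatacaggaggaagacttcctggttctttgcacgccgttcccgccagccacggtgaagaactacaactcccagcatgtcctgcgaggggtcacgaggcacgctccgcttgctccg
Commd3 holds 4 GC boxes, Commd4 holds 1 GC box and 1 CCAAT box, and the stretches of Commd1 and Commd9 hold neither.

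RefSeq promoters were found for 7 of the 10 members (not for Commd2, Commd5 and the targeted gene), and the 250 bases upstream of their RefSeq starts were searched on both strands. GGGCGG was present in 4 of the 7 (Commd3, Commd4, Commd6 and Commd8) and in 32.7% of all 32851 promoters. CCAAT was present in 2 (Commd4 and Commd8), beside 33.8% of all. The ETS core CCGGAAG was present in 1 (Commd4), beside 6.91%, and the CLEAR E-box, a motif of lysosomal gene regulators, in 1 (Commd9), beside 0.240%. Both of these matches lie downstream of the gene start used to end the printed stretches. The CRE TGACGTCA (1.55% of all) and the palindromic NRF1 motif (0.782%) were in 0 of the 7. None of the 6 motifs was present in all 4 printed members, and a match is a description of the letters alone.

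In C1q cells, 2 of the 10 members were called higher than in the other cells and 0 lower, against 14.5% and 13.9% of 13122 genes, so the share was near the background. Commd9 had 33.8, 30.9 and 30.9 CPM (TMM-scaled) in gated cells of control 1, control 3 and knockout 4, beside 25.4, 24.2 and 24.9 in other cells. The groups did not overlap, and the log2 fold change was 0.37 (SE 0.07, edgeR adjusted p = 0.00123). Commd9 passed without each library in turn (adjusted p 0.0220, 0.0232 and 6.96e-05) and by DESeq2 (0.0231), and missed the threshold after thinning (0.0514). Commd3 had 98.5, 93.4 and 88.0 beside 88.9, 76.1 and 81.3 (0.19, SE 0.05, adjusted p = 0.0162); it was higher in each library, but the groups overlapped. It did not pass without control 1 (0.0714) or control 3 (0.246), or by DESeq2 (0.147). Commd10 was higher in the C1q cells of both controls (20.3 beside 16.5 and 12.3 beside 9.90) and lower in those of the knockout (7.11 beside 8.84). Over all 3 libraries Commd10 was not called (0.21, adjusted p = 0.195). Without knockout 4 it was called (0.30, SE 0.11, adjusted p = 0.0227), as was Commd4 (0.15, adjusted p = 0.0301), which made 4 calls. In that fit 1927 of 13128 genes were called higher and 1909 lower. Over all 3 libraries the other 6 members lay between -0.11 (Commd8) and 0.23 (Commd5). The median depth of C1q cells was 10158, 9628 and 7629 UMIs, above that of all monocyte-macrophage cells in each library.

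In S100a8/S100a9 cells, 2 of the 10 members were called higher and 0 lower, against 8.77% and 9.76% of 12677 genes. Commd1 had 111, 112 and 135 CPM (TMM-scaled) in gated cells beside 102, 85.1 and 96.1 in other cells, without overlap. Its log2 fold change was 0.34 (SE 0.08, edgeR adjusted p = 0.00388), and it missed the threshold without knockout 4 (0.0554). Commd8 had 84.6, 86.4 and 94.8 beside 74.8, 72.1 and 76.3, also without overlap (0.25, SE 0.08, adjusted p = 0.0257). Its call was lost without control 1 (0.0507) and without knockout 4 (0.158), and DESeq2 did not make it (0.125). Commd1 and Commd8 thus had the largest log2 values of the 10 in these cells, while the other 8 lay between -0.11 (Commd6) and 0.10 (Commd2).

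**Figure D3:**
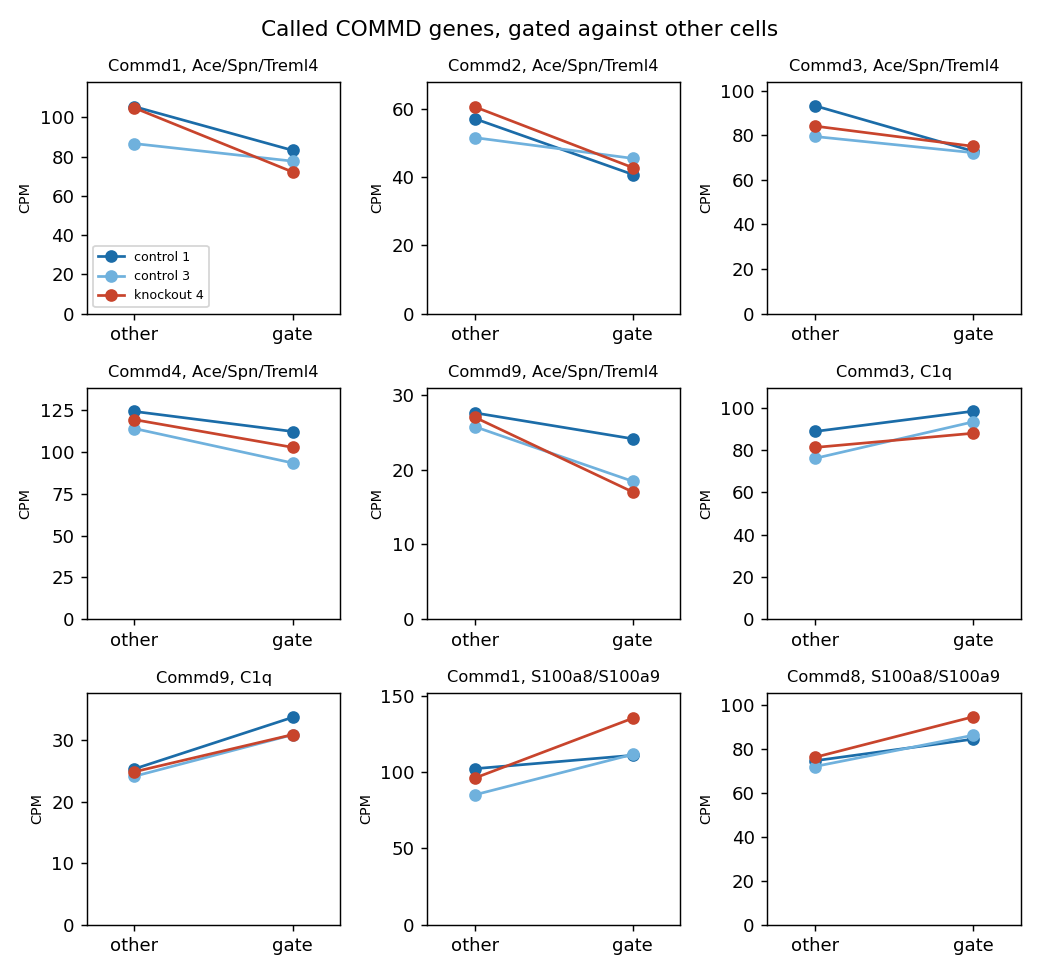
TMM-scaled CPM of each called member in the gated cells and in the other cells of the same library, with 1 line for each library and axes that start at 0. All 15 lines for the Ace/Spn/Treml4 gate fall and all 12 lines for the C1q and S100a8/S100a9 gates rise. The pairs shown were called from these same values, so their shared direction is no added support. The uncalled Commd5, Commd6 and Commd7, not shown, were also lower in the Ace/Spn/Treml4 cells of all 3 libraries.

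The other gates gave 0 calls among the 10 members by edgeR and by DESeq2. The share of all genes called was 16.1% for Arg1, 17.6% for Gpnmb/Lpl, 6.75% for MHC class II and 21.4% for Vcan cells, and 7.34% for cells with a type I interferon state, a gate that overlaps the others. At an unadjusted p under 0.05 edgeR had 0, 1, 1, 1 and 0 members in these gates. Commd1, Commd2, Commd3 and Commd4, called lower in Ace/Spn/Treml4 cells, were also lower in MHC class II cells of all 3 libraries. The remaining members differed in direction between libraries there. Commd1 came nearest to a call: it had 88.1, 79.2 and 74.0 CPM in MHC class II cells beside 103, 86.7 and 103 (-0.24, SE 0.07, edgeR adjusted p = 0.0503). In Vcan cells Commd1 had 121, 86.5 and 118 beside 99.2, 86.3 and 96.8 (0.18, SE 0.06, adjusted p = 0.0552). Both passed without control 3 (adjusted p = 0.0300 and 0.00354). Without knockout 4, edgeR called Commd3 in Gpnmb/Lpl cells (0.25, adjusted p = 0.0226) and both Commd3 (-0.15, adjusted p = 0.0343) and Commd9 (-0.37, adjusted p = 0.00142) in Vcan cells. In the knockout itself Commd9 was not lower in Vcan cells (27.5 beside 25.4), whereas it was in control 1 (19.5 beside 28.4) and control 3 (22.7 beside 27.0). Arg1 cells, which made up 19.3% of knockout cells and 5.28% and 1.85% of control cells, had all 10 members between -0.09 (Commd8) and 0.20 (Commd5).

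**Figure D4:**
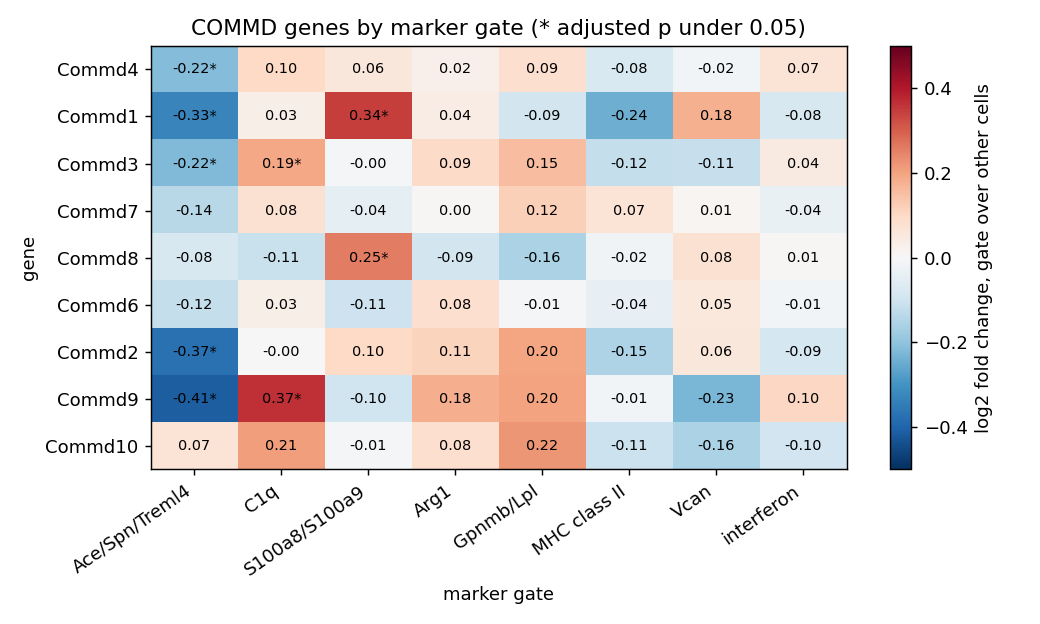
Log2 fold change of each COMMD gene in gated over other cells of the same library, from the edgeR fit over 3 libraries; red is higher and blue lower in gated cells, and a star marks an adjusted p under 0.05. Commd5 is left out for its few UMIs; 5 stars are in the Ace/Spn/Treml4 column, 2 in C1q and 2 in S100a8/S100a9.

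Commd10 was called in none of the gates over the 3 libraries, and its pattern differed between libraries. In CPM of each group's own total, control 1 ranged from 13.4 in Vcan cells to 20.5 in C1q cells. Control 3 ranged from 8.36 in MHC class II cells to 15.0 in Arg1 cells, and knockout 4 from 6.99 in C1q cells to 9.93 in Vcan cells. The knockout was below control 1 in 8 of 8 groups, by log2 values from -1.55 in C1q cells to -0.44 in Vcan cells. Against control 3 it was lower in 6 of 8 groups, from -1.01 in Arg1, -0.83 in Gpnmb/Lpl and -0.81 in C1q cells to -0.09 in Ace/Spn/Treml4 cells. It was 0.03 higher in MHC class II and 0.08 higher in Vcan cells. Counts behind the knockout values were small, with 5 UMIs in the group with the fewest.

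**Figure D5:**
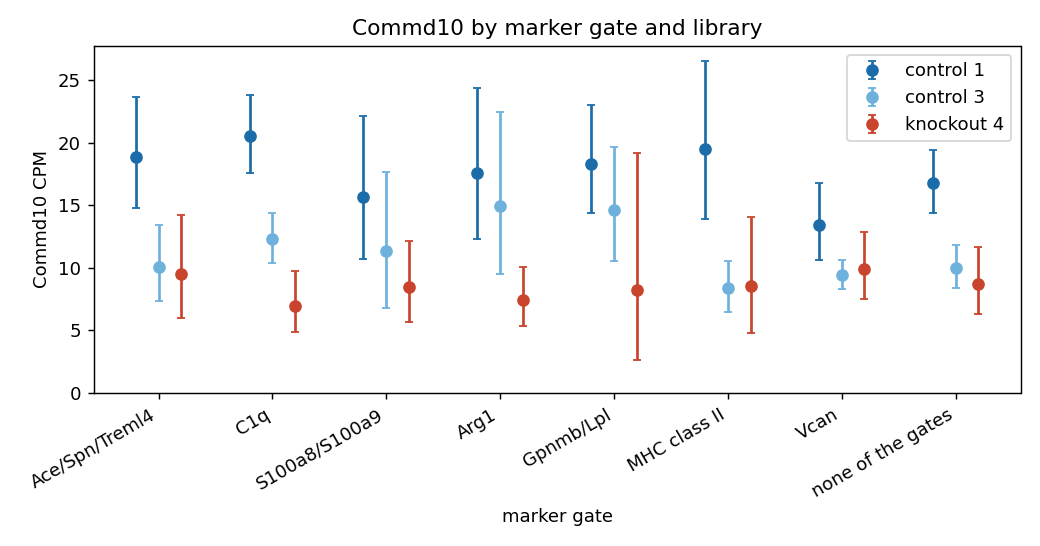
Commd10 CPM of each group's total in the marker-gated groups, with exact Poisson 95% intervals that cover counting error only. Control 1 is above knockout 4 in all 8 groups, and control 3 is above it in 6, with the knockout slightly higher in MHC class II and Vcan cells.

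Whether the knockout difference itself varied with the gate was tested with an interaction term, an analysis chosen after the data were seen. Over 8 gates and 10 members, 0 of 80 values were called by edgeR, and 6 had an unadjusted p under 0.05, beside 5.46% to 9.37% of all genes in the same fits. The share of all genes called in these fits was 1.39% for Ace/Spn/Treml4, 0.998% for C1q, 0.379% for S100a8/S100a9 and 1.08% for Arg1 cells. It was 1.45% for Gpnmb/Lpl, 0.953% for MHC class II, 0.825% for Vcan and 0.541% for interferon cells. For Commd10 the interaction was -0.65 in C1q cells (SE 0.28, adjusted p = 0.477) and 0.61 in Vcan cells (SE 0.27, adjusted p = 0.470). For Commd9 in Vcan cells it was 0.48 (SE 0.19, adjusted p = 0.356). The others were Commd7 in Vcan, Commd8 in Arg1 and Commd1 in MHC class II cells. Each of these fits held a single knockout library, so how the knockout difference varies between knockout libraries was not measured. The spread came from the controls and from the other genes, and the knockout was assumed to vary as they did. The fits therefore cannot decide whether the knockout difference depends on the gate.

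The complexes and cargo that work with the ring were compared between the same gates, with 30 genes tested in each. In Ace/Spn/Treml4 cells 6 were called higher and 2 lower, against 10.6% and 10.5% of all genes. Those higher included the NF-kB gene Nfkb1 (0.58), the recycled integrin chain Itgb1 (0.48) and the copper chaperone Atox1 (0.26). Those lower were Vps29 (-0.46, SE 0.07, edgeR adjusted p = 0.000186), which retriever shares with retromer, and Elob (-0.28), the elongin B of Cul2 ligases. In C1q cells 4 were higher and 5 lower, against 14.5% and 13.9%. Washc5, the strumpellin subunit of the WASH complex (0.40), the scavenger receptor Lrp1 (0.25) and Vps29 (0.22) were among those higher, and Notch2 (-0.49), Nfkb1 (-0.40) and Xiap (-0.27), a ubiquitin ligase that targets COMMD1, among those lower. In S100a8/S100a9 cells 2 were higher and 5 lower, against 8.77% and 9.76%. The 5 were Lrp1 (-0.42), Itgb1 (-0.47), Atox1 (-0.32), Washc5 (-0.40) and Nfkbia (-0.22), the inhibitor of NF-kB. Arg1 cells had 6 higher and 1 lower, against 16.1% called in either direction. Washc5 (0.47), the retromer subunits Vps35 (0.29) and Vps26a (0.30), and Vps29 (0.26) were among those higher, and Notch2 (-0.32) was lower. Gpnmb/Lpl cells had 5 higher and 3 lower, against 17.6%, with Washc5 (0.56), Lrp1 (0.31) and Vps29 (0.31) higher and Nfkb1 (-0.57) and Notch2 (-0.42) lower. Vcan cells had Notch2 higher (0.40) and 4 lower, against 21.4%: Washc5 (-0.58), Lrp1 (-0.28), Itgb1 (-0.23) and Atox1 (-0.20). MHC class II cells had 1 higher (Atox1, 0.24), against 6.75%, and interferon cells 2 higher (Atox1, 0.16, and Washc4, 0.31), against 7.34%. The list's median stayed between -0.09 and 0.09 in these gates, beside -0.02 to 0.01 over all genes tested, so it moved in no single direction.

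The log2 levels of the members were correlated across the 24 sums of 3 libraries by 8 groups, each centred within its library. Pearson's r over the 45 pairs of members ran from -0.37 (Commd6 with Commd8) to 0.75 (Commd3 with Commd4), with a median of 0.36. The values of Commd10 with other members ran from -0.28 (Commd8) to 0.43 (Commd4). Among 5606 genes with a mean of at least 20 CPM, Naxe (r = 0.82), Usmg5 (0.79), Lrrc59 (0.78), Lgals1 (0.77) and Lgals8 (0.75) were most like Commd4. Micu2 (0.62), Carnmt1 (0.62), Acadvl (0.62), Fam91a1 (0.61) and Cant1 (0.61) were most like Commd10. These r values are descriptions over sums that share libraries and depth. Those of Commd10 and Commd5 rest on few UMIs a sum, down to 5 and 1. The r of pairs of other genes was not computed, so the median over members has no reference.

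The barcodes that failed the filters on detected genes and mitochondrial RNA held less of the family. The 699, 660 and 695 failing barcodes of control 1, control 3 and knockout 4 had 341, 299 and 335 CPM of COMMD UMIs, beside 658, 590 and 613 in the passing cells. With mitochondrial UMIs left out of the totals, the CPM values were 394, 344 and 383 beside 666, 597 and 621. Failing barcodes were shallow, with medians of 848, 748 and 758 UMIs, and the family's total in them was 233, 160 and 194 UMIs.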

How the data were processed

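Single-cell RNA of liver cells sorted as Ly6Chi monocytes was measured in 3 libraries (2 control, 1 knockout). The deposited values are unnormalized UMI counts for each gene in each barcode, which the authors made with Cell Ranger 3.0.2 after bcl2fastq on GRCm38, per the submitters' processing notes. No deposited barcode had under 500 UMIs, and no label says how barcodes were chosen. The design text states 4860, 8149 and 5229 cells for control 1, control 3 and knockout 4. The libraries held 40092348, 72867668 and 30302932 UMIs. Of 53802 gene identifiers, 53620 were found in GENCODE M21.

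Barcodes needed 500 or more genes and a mitochondrial share of 10% or less; no doublet caller was run. Cells with at least 3 of 10 lymphocyte or 3 of 4 neutrophil markers were left out (72 and 23 cells over the libraries). Exclusive gates were then applied in order, on UMIs per 10000: Ace, Spn and Treml4 at 5 or more with 2 markers; C1qa, C1qb and C1qc at 10 with 2; S100a8 and S100a9 at 20; Arg1 at 10; Gpnmb and Lpl at 10 with both; MHC class II genes at 50; Vcan at 2. Single-marker gates needed 2 UMIs. The interferon gate (5 genes at 10 or more) was laid over them. Gate levels were set after marker levels were seen, without COMMD genes.

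UMIs were summed per library, and sums were compared with edgeR 4.0.16 in R 4.3.3 (TMM, filterByExpr, glmQLFit, two-sided glmQLFTest, Benjamini-Hochberg over all genes tested, threshold 0.05), with the library as a block in gate comparisons; scripts were tested on simulated data. DESeq2 1.42.0, plain totals, no filter, other cell sets, thinning and leaving out libraries were tried. Gated and other cells pair because both sums come from 1 library. All 10 members were named in the knockout comparison and, of the partner list, those called (at most 5 by p) or the 3 with the smallest p; Vps29 in C1q cells was named after its values were seen; 1 listed gene is not reported here. Members and lists were chosen with earlier results of these data known. Intervals cover counting error only.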

Additional observations from a re-analysis of the deposited data

How the results depend on the processing

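The 0 calls among the 10 members between knockout and control stayed at 0 under plain totals, no low-count filter, DESeq2, all deposited barcodes, no Arg1 cells, thinning and no cells above 2 times the median depth (the last chosen after seeing the data). No paired analysis was possible because the labels' numbers 1, 3 and 4 are not shared between the genotypes. Of 90 member values under these alternatives and without a control, 14 had the other sign, all near 0: Commd4 (-0.0482 with plain totals, -0.0182 with no filter, -0.0078 by DESeq2, -0.000801 over all barcodes, -0.0167 without Arg1 cells, -0.0653 thinned and -0.0135 without deep cells), Commd3 (0.0560 thinned) and Commd9 (0.0573 thinned, 0.0015 without deep cells), and, without a control, Commd1 (-0.00798 without control 3), Commd3 (0.0687 without control 1), Commd4 (-0.0529 without control 3) and Commd9 (0.0409 without control 1).

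Without the library block (no replicate block), 0 members were called in the Ace/Spn/Treml4, C1q or S100a8/S100a9 gates. In those unblocked fits, genes called higher and lower were 325 and 181 of 12447, 154 and 119 of 12753, and 154 and 171 of 12226. The block changed no member count in the other gates. Ace/Spn/Treml4 calls were 2 by DESeq2 and 2 thinned, and 2 to 4 without 1 library. Counts over all genes in these fits are given above with the members. C1q calls were 1 with no filter, 1 by DESeq2 and 0 thinned, and 1 to 4 without 1 library. Genes called higher with no filter, by DESeq2 and thinned were 1580 of 24609, 990 of 12204 and 1275 of 11457. Without control 1, control 3 and knockout 4 they were 1258 of 12781, 1006 of 12659 and 1927 of 13128. S100a8/S100a9 calls were 1 with no filter, by DESeq2, with stricter gates and thinned, and 0 to 2 without 1 library. Genes called higher in the former fits, in that order, were 861 of 24609, 742 of 12204, 753 of 12878 and 705 of 11375. Leaving out control 1, control 3 or knockout 4 gave 805 of 12279, 1113 of 12386 and 776 of 12950. MHC class II calls were 1 with plain totals, no filter and stricter gates (0 to 1 without 1 library). These calls were lower in gated cells, as were 509 of 13142, 653 of 24609 and 546 of 13280 genes. Without control 3, 391 of 12375 genes were called lower. Vcan calls were 2 with no filter and 1 with stricter gates (0 to 2 without 1 library). Genes called higher and lower were 1270 and 1943 of 24609 with no filter, and 1436 and 1431 of 13516 with stricter gates. They were 1020 and 992 of 12471 without control 3, and 1510 and 1667 of 13813 without knockout 4. Gpnmb/Lpl calls were 1 thinned (0 to 1 without 1 library). Genes called higher were 605 of 11337 thinned and 1117 of 12867 without knockout 4. The cause of these changes in member calls was not tested. Of 81 alternative values of the 9 called pairs of member and gate, 45 kept their call, 36 lost it and 0 reversed. Stricter gates left under 100 cells in some libraries, down to 67.

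The share of Commd10 in the family sum was 1.58% in control 3 and 1.51% in knockout 4 thinned. Commd10 detection was 14.2%, 9.09% and 5.30% unthinned, and 3.18%, 2.04% and 1.62% at 2000 UMIs, in control 1, control 3 and knockout 4. Commd5 rested on 41 to 45 UMIs a library, and why these were few was not tested.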
